A study of Homo sapiens with 5 samples.

Results

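SMARCA4 (also called BRG1) and SMARCA2 (BRM) encode the alternative ATPase subunits of the SWI/SNF chromatin remodelling complexes, and their transcripts were followed in TOV21G cells that had become resistant to an EZH2 inhibitor. The members were the rows of the count table whose Ensembl identifiers map to these symbols, ENSG00000127616 for SMARCA4 and ENSG00000080503 for SMARCA2, 2 of 30476 identifiers. TOV21G is an established human ovarian clear cell carcinoma line in which ARID1A, a SWI/SNF subunit gene, is mutated, so that every library analysed here carries that defect. RNA-seq was available for 1 library of parental cells and for 4 libraries of EZH2 inhibitor-resistant (EIR) cells. The EIR cells had been selected with GSK126, a small molecule inhibitor of EZH2, at concentrations that rose from 5 to 20 uM, and clones were picked afterwards. Clones 3 and 4 were each sequenced once untreated and once treated with GSK126. The dose and duration of that last treatment are not stated in the labels. Both libraries of a clone share their origin, so the EIR group held 2 independent clones, and parental cells had no replicate.

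SWI/SNF complexes use the energy of ATP to slide or evict nucleosomes. Each assembled complex holds a single ATPase, either SMARCA4 or SMARCA2, whereas most other subunits are shared. SWI/SNF opposes the Polycomb repressive complex PRC2, whose catalytic subunit EZH2 methylates histone H3. ARID1A belongs to the BAF form of SWI/SNF, and its loss is frequent in ovarian clear cell carcinoma.

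The paralogs resemble each other in the coding sequence of the ATPase domain, and reads could in principle be assigned to the wrong gene. The stretch around the nucleotide-binding loop, which contacts ATP, is shown because it encodes the same residues in both genes and still tells the genes apart. It was read from GENCODE release 44 transcripts on GRCh37, 5′ to 3′, with bases that differ between the genes in capitals.
SMARCA4: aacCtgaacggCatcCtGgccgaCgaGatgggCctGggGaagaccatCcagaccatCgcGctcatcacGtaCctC
SMARCA2: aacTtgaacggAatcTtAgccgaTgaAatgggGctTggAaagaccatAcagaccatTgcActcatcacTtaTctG
The SMARCA4 stretch lies in exon 16 of 36 of the chosen transcript, on the plus strand at chr19:11123664-11123738. The SMARCA2 stretch lies in exon 15 of 34, on the plus strand at chr9:2081871-2081945. Of the 75 bases, 15 differed, 13 of them at the last position of a codon, and 0 of the 25 encoded residues differed. The second stretch surrounds the DEGH box, the motif of the same domain that takes part in ATP hydrolysis.
SMARCA4: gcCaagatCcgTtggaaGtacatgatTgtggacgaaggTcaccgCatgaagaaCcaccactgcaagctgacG
SMARCA2: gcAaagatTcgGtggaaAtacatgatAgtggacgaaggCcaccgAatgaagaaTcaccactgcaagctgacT
It spans the junction of exons 18 and 19 in SMARCA4 (chr19:11130372-11132466, intron included) and of exons 17 and 18 in SMARCA2 (chr9:2084191-2086894, intron included). Here 9 of 72 bases differed, all 9 at the last position of a codon, and 0 of 24 residues.

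Over the whole coding sequence, 74.5% of 4667 aligned bases were identical. The longest stretch that both representative transcripts shared was 26 bases, and 0 stretches of 75 bases, the read length, occurred in both. A read that matches a transcript without error therefore fits 1 of these 2 transcripts only. The silent differences also separate the genes in base composition. In the nucleotide-binding stretch GC content was 61.3% in SMARCA4 and 44% in SMARCA2, and at the last codon positions of the whole coding sequence it was 78.6% and 56.8%.

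SMARCA4 occupies chr19:11071608-11190102 on GRCh37, the build the counts were made on, and SMARCA2 occupies chr9:1980290-2193624, both on the plus strand. The transcripts used for length had 5745 bases for SMARCA4 and 5867 bases for SMARCA2, with GC contents of 60.7% and 48.7%. An RN7SL192P pseudogene lies on the same strand inside SMARCA4 and held 5 to 11 counts per library. Annotated antisense genes overlap both members, ENSG00000266936 at SMARCA4 and SMARCA2-AS1 and RNU2-25P at SMARCA2. They were not analysed here, and since it is not stated whether counting used the strand, reads from them cannot be told apart from reads of the members.

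Total counts per library ranged from 25479238 to 30764963, and counting error was small for both members. The labelled cell type was checked with epithelial markers. PAX8 (3031 to 4491 counts), KRT8 and KRT18 were abundant in all 5 libraries. EPCAM, an epithelial adhesion molecule, had 398 counts in parental cells, 426 and 498 in clone 3, and 0 and 1 in clone 4. KRT19 had 112 counts in parental cells, 1763 and 2022 in clone 3, and 0 and 7 in clone 4, so the clones were unlike each other in epithelial markers and members are given per clone throughout. Summed normalised counts of the listed leukocyte markers were 9.06 in parental and 21.4 to 34.9 in EIR libraries, of endothelial CDH5 7.05 and 4.07 to 9.26, and of fibroblast markers 111 and 33.6 to 112.

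SMARCA4 was lower in every EIR library than in the parental library. The counts scaled by DESeq2 size factors, called normalised counts, were 13474 in the parental library. Clone 3 held 8652 without and 8934 with GSK126, and clone 4 held 8331 without and 8610 with it. The EIR libraries lay within a narrow band (mean 8632 ± 247, SD, n = 4), which amounted to 61.8% to 66.3% of the parental level. Each neighbouring pair in the order of the EIR values had overlapping counting intervals, whereas the parental value stood apart from all of them. In bulk RNA, fewer cells that express a gene and less of its RNA per cell cannot be told apart.

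SMARCA2 moved the other way. Its normalised counts were 1238 in the parental library. Clone 3 held 2532 without and 3136 with GSK126, and clone 4 held 3479 without and 3473 with it. Every EIR library exceeded the parental library, by 2.05-fold in untreated clone 3 to 2.81-fold in both libraries of clone 4. The spread between EIR libraries was wider than for SMARCA4 (mean 3155 ± 445, SD, n = 4), with a coefficient of variation of 14.1% against 2.86%. In the order of levels, the clone 4 libraries did not differ beyond counting error, treated clone 3 came next, untreated clone 3 was the lowest of the EIR libraries, and parental cells were below it. The plot of normalised counts by library shows both genes with this spread.

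**Figure D1:**
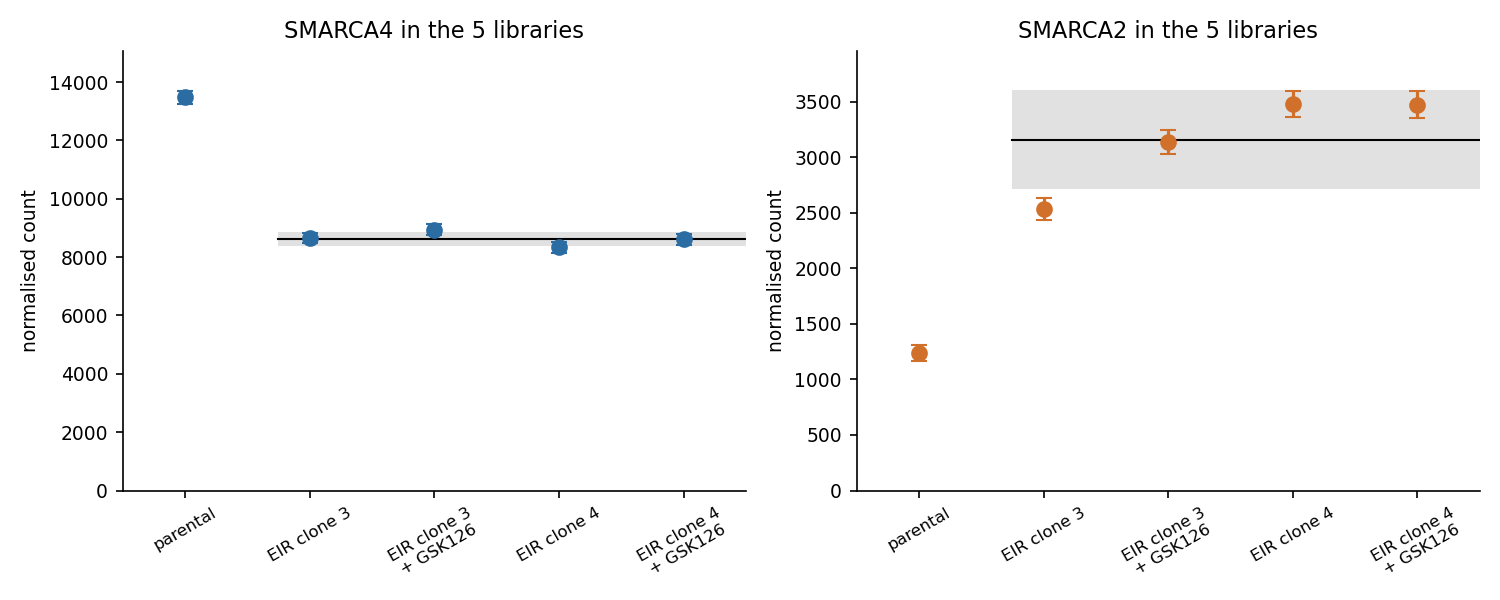
Normalised counts (y axis, linear, from 0) of SMARCA4 (left) and SMARCA2 (right) in the 5 libraries, with 95% Poisson intervals as bars, the mean of the 4 EIR libraries as a line and ± 1 SD as a grey band. The 4 EIR libraries sit between 8331 and 8934 for SMARCA4, below 13474 in parental cells, and between 2532 and 3479 for SMARCA2, above 1238 in parental cells.

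The first comparison asked whether the ATPase transcripts differ between EIR and parental cells. With the 4 EIR libraries as a group, DESeq2 gave a log2 fold change of -0.64 for SMARCA4 (SE 0.13, adjusted p = 1.96e-05) and of 1.35 for SMARCA2 (SE 0.25, adjusted p = 2.26e-06). In this comparison 13.2% of the 16288 genes tested were called lower and 12.4% were called higher, so calls in either direction were common. Between the parental and the EIR libraries, 33.5% to 38.3% of expressed genes (a mean of at least 100 normalised counts) differed by more than SMARCA4, and 8.99% to 15.4% differed by more than SMARCA2. Because the parental library has no replicate, the error came from the spread between EIR libraries.

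Each clone showed both directions on its own. Clone 3 alone gave a log2 fold change of -0.60 for SMARCA4 and of 1.21 for SMARCA2, and clone 4 alone gave -0.69 and 1.47. When both libraries of each clone were summed to 1 sample, SMARCA2 kept its call at 1.35 (DESeq2 adjusted p = 3.45e-04), and SMARCA4 kept its size at -0.63 but lost its call (DESeq2 adjusted p = 0.0890).

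The size of the SMARCA4 change moved with GC content. Across 11377 expressed genes, the log2 difference of each EIR library from the parental library fell with the GC content of the transcript, by 0.37 to 0.48 for every 10 percentage points, and SMARCA4 is the more GC-rich of the pair. After the trend was removed from each library, SMARCA4 stood at 10667 corrected counts in the parental library, at 8921 (untreated) and 9222 (treated) in clone 3, and at 9262 (untreated) and 9268 (treated) in clone 4. All 4 EIR libraries were still below the parental library, but the log2 fold change shrank to -0.22 (SE 0.12) and was no longer called (DESeq2 adjusted p = 0.196). SMARCA2 had a log2 fold change of 1.50 (SE 0.25) under the correction. With 1 parental library, a GC trend of the preparation and a difference between the cells cannot be told apart.

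**Figure D2:**
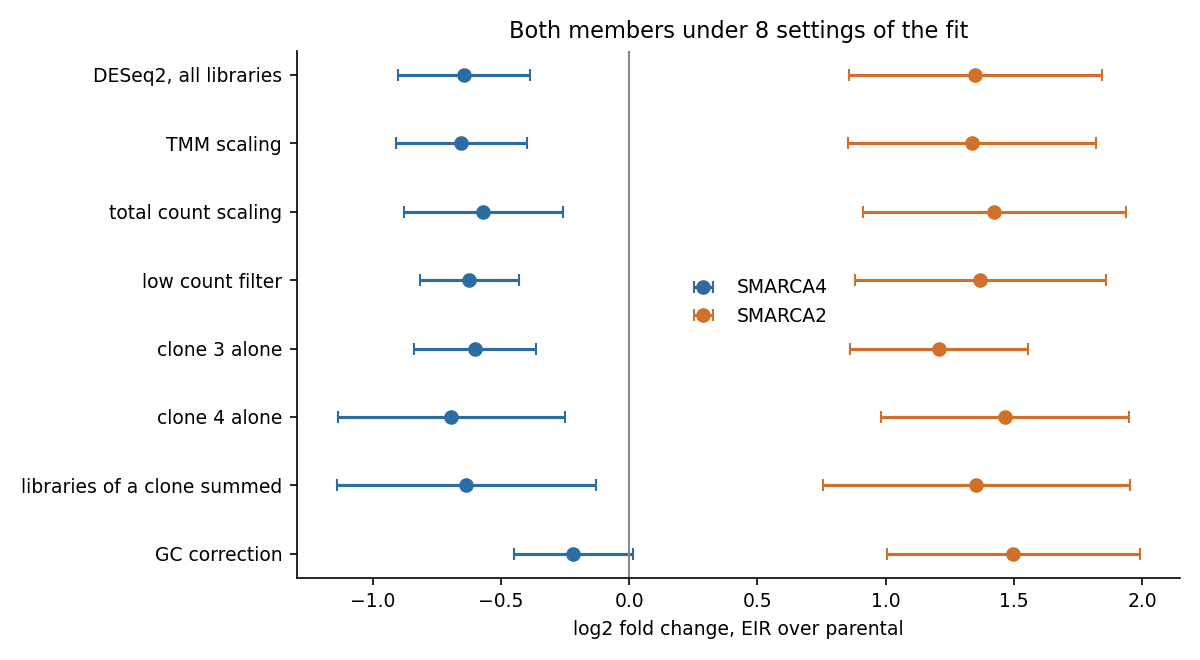
Log2 fold change of EIR over parental cells (x axis) for SMARCA4 (blue) and SMARCA2 (orange) under 8 settings of the DESeq2 fit (y axis), with 95% intervals as bars. SMARCA2 stays between 1.21 and 1.50, and SMARCA4 stays between -0.69 and -0.57 except after GC correction, where it is -0.22 and its interval includes 0.

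Parental cells were not exposed to the drug, so untreated EIR cells were also compared with them. In a fit with 3 groups, SMARCA4 changed by -0.67 on the log2 scale (SE 0.21, DESeq2 adjusted p = 0.0198) and SMARCA2 higher by 1.28 (SE 0.32, DESeq2 adjusted p = 0.00138). In this comparison 6.83% of the 15114 genes tested were called lower and 6.39% higher. GSK126-treated EIR cells gave -0.62 for SMARCA4 (SE 0.21, DESeq2 adjusted p = 0.0342) and 1.42 for SMARCA2 (SE 0.32, DESeq2 adjusted p = 2.81e-04), with 6.13% of 16295 genes called lower and 6.25% higher. Both comparisons share the parental library. With the edgeR quasi-likelihood test, neither member was called in these smaller contrasts (adjusted p = 0.121 to 0.157), where edgeR called 3 genes each.

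The ratio of SMARCA2 to SMARCA4 within a library does not depend on how libraries are scaled to each other. To set the genes side by side, counts were scaled to the library total (CPM) and divided by the transcript length in kilobases. On that scale SMARCA4 stood at 78.0 in the parental library, at 52.9 (untreated) and 53.7 (treated) in clone 3, and at 48.3 (untreated) and 55.6 (treated) in clone 4. SMARCA2 stood at 7.02, at 15.2 and 18.5, and at 19.8 and 22.0 in the same order of libraries. SMARCA4 was thus 11.1 times as abundant as SMARCA2 in parental cells and 2.45 to 3.49 times as abundant in EIR cells. The proportion shifted toward SMARCA2, and SMARCA4 remained the more abundant transcript in all 5 libraries.

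As a share of the reads on both genes, SMARCA2 took 8.41% in parental cells (95% Wilson interval 7.97 to 8.87), 22.6% (untreated) and 26.0% (treated) in clone 3, and 29.5% (untreated) and 28.7% (treated) in clone 4. The log2 ratio of the counts was -3.44 in the parental library and averaged -1.46 ± 0.23 (SD, n = 4) in the EIR libraries, a change of 1.98 or 3.95-fold. The smallest change, in untreated clone 3, was 3.19-fold, and the largest, in untreated clone 4, was 4.55-fold. The groups did not overlap, and an exact two-sided permutation test gave p = 0.2, the smallest that 1 library against 4 allows. After GC correction the ratio changed by 1.70 on the log2 scale, or 3.26-fold, with a range over EIR libraries of 1.43 to 1.85. The shift of the ratio was larger than the spread between EIR libraries with and without the correction.

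The combined amount of both transcripts was lower in all 4 EIR libraries before GC correction and in 1 of them after it. The sum of CPM per kilobase was 85.1 in the parental library, 68.0 (untreated) and 72.2 (treated) in clone 3, and 68.1 (untreated) and 77.6 (treated) in clone 4. The EIR mean of 71.5 ± 4.50 (SD, n = 4) was 0.840 of the parental value. On this scale the gain of SMARCA2 was smaller than the loss of SMARCA4 in all 4 EIR libraries. After GC correction the summed counts of both genes were 11810 in the parental library, 11499 (untreated) and 12425 (treated) in clone 3, and 12800 (untreated) and 12855 (treated) in clone 4. There 3 of the 4 EIR libraries exceeded the parental library, and in these 3 the gain of SMARCA2 exceeded the loss of SMARCA4.

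**Figure D3:**
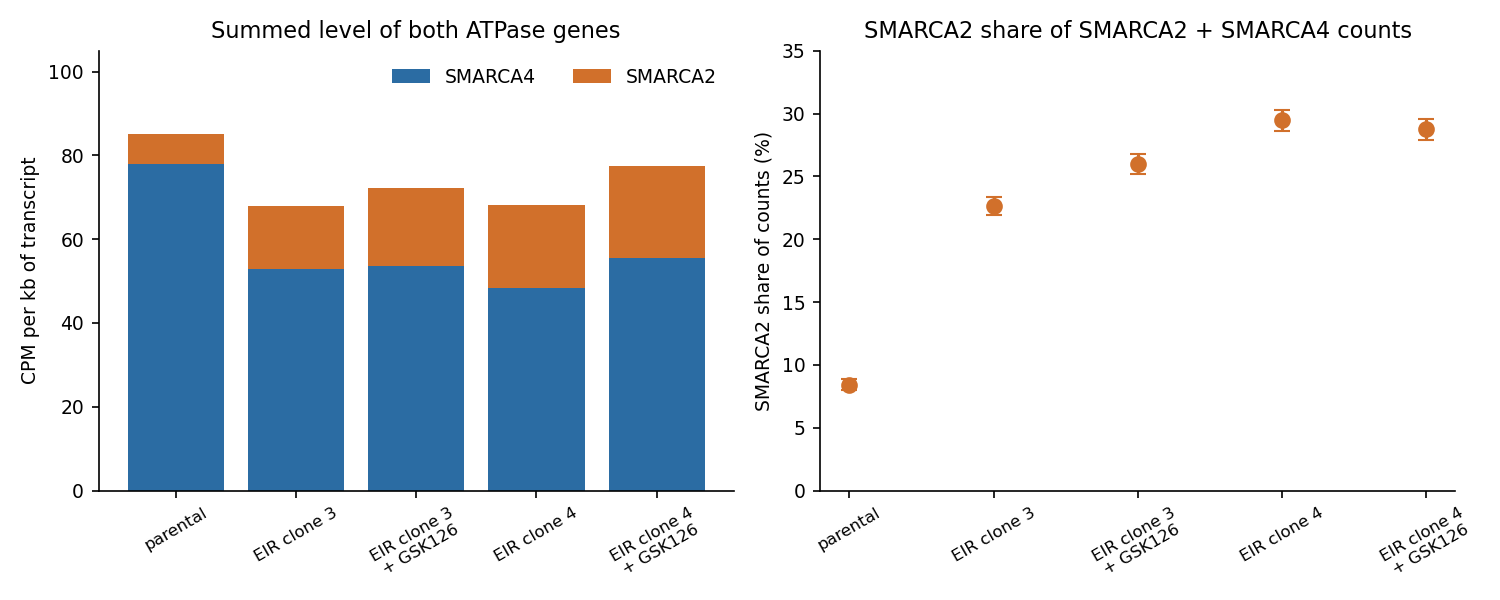
Left, CPM per kilobase of transcript (y axis, linear, from 0) of SMARCA4 and SMARCA2, stacked for each of the 5 libraries. Right, the share of SMARCA2 in the counts of both genes (y axis, percent, from 0) with 95% Wilson intervals; the share is 8.41% in parental cells and 22.6% to 29.5% in EIR cells.

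The next comparison asked whether the ATPases move with the drug in cells that are already resistant. SMARCA4 differed little, by 0.05 on the log2 scale between treated and untreated cells of either clone. SMARCA2 was higher by 0.31 in treated than in untreated clone 3 and differed by -0.0024 in clone 4. Of expressed genes, 9.86% differed by more than SMARCA2 between treated and untreated clone 3, and 99.4% did so in clone 4. For SMARCA4 these shares were 76.4% and 85.7%. The ratio of SMARCA2 to SMARCA4 changed by 0.26 in clone 3 (95% counting interval 0.18 to 0.35) and by -0.05 in clone 4 (-0.13 to 0.03). Over both clones, DESeq2 gave 0.03 for SMARCA4 (95% interval -0.31 to 0.38) and 0.13 for SMARCA2 (-0.37 to 0.62), with an adjusted p of 1.00 for each. With the clone number as replicate block, which pairs treated and untreated cells of a clone, the values were 0.03 (-0.28 to 0.35) and 0.14 (-0.21 to 0.49). Only 0.00335% of 29847 genes, 1 gene, was called here by DESeq2, with 117 at an unadjusted p under 0.05, and 0 were called by edgeR. With the replicate block DESeq2 called 4 genes and edgeR 1.

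The clones were then compared with each other. SMARCA2 was higher in clone 4 than in clone 3 by 0.46 on the log2 scale in untreated cells and by 0.15 in treated cells, while SMARCA4 was lower by 0.05 in both. The ratio was higher in clone 4 by 0.51 in untreated cells (95% counting interval 0.43 to 0.60) and by 0.20 in treated cells (0.12 to 0.28). The clones thus differed by more than counting error in each condition. Of expressed genes, 22.8% differed between the clones by more than SMARCA2 in untreated cells and 72.3% in treated cells. For SMARCA4 these shares were 86.2% and 89.8%. DESeq2, with treatment as covariate, gave 0.30 for SMARCA2 (SE 0.18, adjusted p = 0.415) and -0.06 for SMARCA4 (SE 0.16, adjusted p = 0.945). Neither member was among the 9.83% of 17695 genes called between the clones.

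SMARCA4 and SMARCA2 belong to the Snf2 family of helicase-like ATPases, whose other members power the ISWI, CHD and INO80 remodellers or act in DNA repair. Among 31 expressed Snf2 genes, ordered by counts per kilobase, SMARCA4 was 3rd in parental cells and between 4th and 6th in EIR cells. SMARCA2 moved from 18th in parental cells to between 12th and 15th. Of the 30 other family members in the table, 29 had an adjusted p, and 11 of these were called in EIR against parental cells, 9 higher and 2 lower, beside 12.4% and 13.2% over all genes. The median log2 fold change of the 29 expressed ones was 0.23, against -0.06 over all 11564 expressed genes.

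Among the 29 expressed members, only SMARCAD1, a remodeller that keeps heterochromatin through replication, rose more than SMARCA2, with a log2 fold change of 1.76. CHD5, with 2 to 8 counts per library, was below the expression threshold and had 1.50 without an adjusted p. ATRX, which works with histone H3.3 at repeats and telomeres, rose by 1.28, and CHD9 rose by 1.13. The ISWI ATPases SMARCA1 and SMARCA5, the CHD1 remodeller, RAD54B of recombination repair, ERCC6L and ERCC6L2 rose by 0.59 to 1.07. CHD3, an ATPase of the NuRD complex, fell by 1.15 on the log2 scale, and ERCC6 of transcription-coupled repair fell by 0.83, both more than SMARCA4. The transcripts of the 9 genes that rose had a GC content of 36.0% to 41.4%, below the 48.7% of SMARCA2. After GC correction 7 of the 29 were called, 6 higher and 1 lower, among 19.4% of all genes, and the median was 0.13. In edgeR 3 were called, 3 higher and 0 lower, among 11.1% of all genes, so the calls of CHD3 and ERCC6 were not kept there. With the libraries of a clone summed 6 were called, 5 higher and 1 lower, among 12.2% of all genes.

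**Figure D4:**
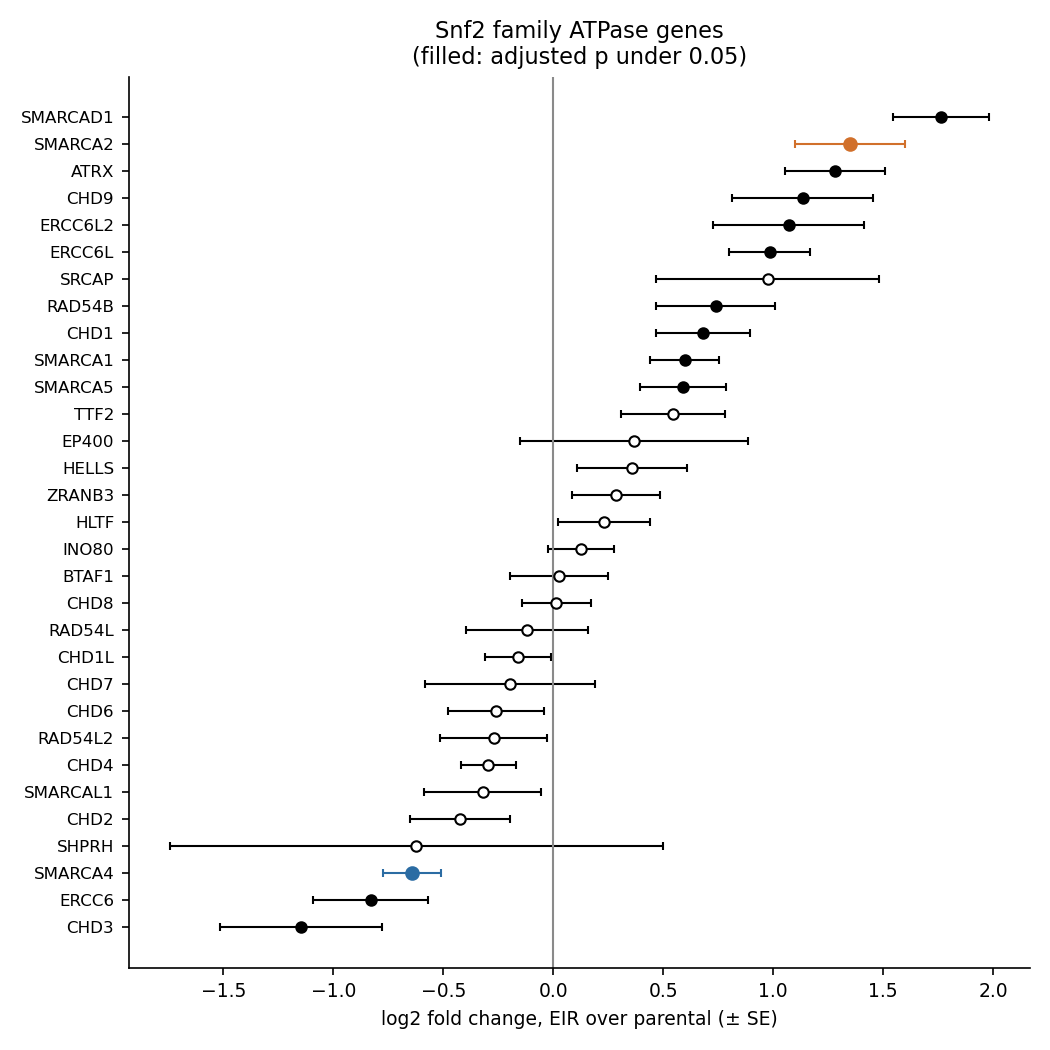
Log2 fold change of EIR over parental cells (x axis) with ± SE bars for the 31 expressed Snf2 family genes (y axis, in order of the value). Filled points had a DESeq2 adjusted p under 0.05. SMARCA2 (orange, 1.35) is 2nd only to SMARCAD1 (1.76), and SMARCA4 (blue, -0.64) lies above ERCC6 and CHD3.

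The other SWI/SNF subunits were examined as a list. Of 27 listed subunit genes 26 were in the table and 5 were called, 1 higher and 4 lower, beside 12.4% and 13.2% over all genes. The balance depended on the setting, with 2 higher and 2 lower after GC correction and 3 and 3 with total count scaling. It was 0 and 2 in edgeR, and 0 and 1 with the libraries of a clone summed. In these settings 19.4%, 23.9%, 11.1% and 12.2% of all genes were called in either direction, in the same order. PBRM1, the bromodomain subunit of the PBAF form, rose by 0.59. SMARCD2, a BAF60 subunit that links the complex to transcription factors, fell by 1.01, and BCL7A, BCL7C and ACTB, the gene of the actin subunit, fell by 0.86, 0.72 and 0.56. The median over the 23 expressed subunits was -0.26 on the log2 scale. None of the subunits (0 of 23) lay above SMARCA2, whereas 4 of the 23 lay below SMARCA4. These were SMARCD2, BCL7A, BCL7C and PHF10, the last at -0.72 and not called.

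SWI/SNF holds several other families in which paralogs replace each other, and their ratios were measured in the same way. The log2 ratio of SMARCA2 to SMARCA4 changed by 1.98 ± 0.23 (SD over 4 EIR libraries), the largest change among the 8 pairs with both members expressed, before GC correction and after it (1.70). The ratio of BCL7B to BCL7A rose by 1.28 ± 0.14, and that of SMARCD2 to SMARCD1 changed by -1.20 ± 0.22. Both kept their direction in all 4 EIR libraries and after GC correction (1.45 and -1.09). SS18L1 to SS18 changed by -0.62 ± 0.12, and SMARCD3 to SMARCD1 by -0.68 ± 0.63. The core pair SMARCC1 and SMARCC2 (0.05 ± 0.27) and the pair ARID1A and ARID1B (-0.0028 ± 0.17) had changes below the spread between EIR libraries. The same held for BCL7C to BCL7A (0.13 ± 0.19). A change of ratio beyond that spread was thus present in some paralog pairs and not in others.

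The genes whose profile over the 5 libraries lay nearest to each member were found from the root mean square difference of log2 levels centred on their mean. For SMARCA4 these were MAVS (0.0188), TMUB1, RNF166, IL10RB and POLDIP3 (0.0302), against a median of 0.333 over expressed genes. For SMARCA2 they were STEAP2 (0.0371), LIFR, ENSG00000260966, ITPR1 and PTAR1 (0.0540), against a median of 0.634. LIFR, the receptor of leukaemia inhibitory factor, had 915 normalised counts in parental cells, 1928 and 2360 in clone 3 and 2447 and 2590 in clone 4. ITPR1, a calcium channel of the endoplasmic reticulum, had 795, then 1724 and 1917, then 2216 and 2177, untreated before treated. Like SMARCA2, both were lowest in parental cells and next lowest in untreated clone 3, a likeness that comes with choosing them by their profile. With 5 libraries, many genes are close to any profile, and the distances are a description.

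The chromosomal surroundings of the members were examined last, as expressed genes within 1 Mb on either side. Around SMARCA4, 44 such genes are reported here. Of these, 11 were called lower and 3 higher in EIR against parental cells, beside 13.2% and 12.4% over all genes, and 12 had a lower log2 fold change than SMARCA4. The median was -0.23, and it was 0.12 after GC correction. With that correction 6 were called lower and 5 higher, beside 19.4% of all genes in either direction, so the balance of directions changed with that setting. In edgeR 9 were called lower and 0 higher, beside 11.1% of all genes in either direction. With the libraries of a clone summed 7 were called lower and 0 higher, beside 12.2%. The nearest expressed gene before SMARCA4, TIMM29, lay 27.4 kb away and had a log2 fold change of -0.34 (DESeq2 adjusted p = 0.272).

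On the other side SPC24, which encodes a subunit of the kinetochore NDC80 complex, lay 52.1 kb after SMARCA4. It had 3795 normalised counts in the parental library, 1544 (untreated) and 1608 (treated) in clone 3, and 1732 (untreated) and 1712 (treated) in clone 4. SPC24 changed by -1.20 on the log2 scale (SE 0.16, DESeq2 adjusted p = 1.54e-11), which exceeded the fall of SMARCA4. It was followed by KANK2 (-1.15), DOCK6 (-1.47) and RAB3D (-1.18), and these genes were singled out after their values were seen. All 4 genes from SPC24 to RAB3D, the last 243 kb from SMARCA4, were called lower and were lower in all 4 EIR libraries. After GC correction their log2 fold changes were -0.76, -0.65, -1.03 and -0.94, and 3 of the 4 were called, all but DOCK6. In edgeR, with total count scaling and with the libraries of a clone summed, 3 of the 4 were called as well, all lower. TMEM205, beyond RAB3D, had -0.42 (DESeq2 adjusted p = 0.167), but called falls were also found farther out. RGL3 (305 kb after SMARCA4) had -1.60, PRKCSH (356 kb) -0.85 and ECSIT (427 kb) -0.79, named after their values were seen. On the same side ZNF441 (688 kb) was called higher, at 0.92. After GC correction RGL3 kept its call at -1.11, while PRKCSH (-0.41), ECSIT (-0.37) and ZNF441 (0.47) were not called. Before SMARCA4, CARM1, an arginine methyltransferase 37.9 kb away, had a log2 fold change of -0.83 (DESeq2 adjusted p = 9.62e-06) and DNM2, a dynamin 127 kb away, had -0.74 (DESeq2 adjusted p = 0.00173), also named after their values were seen. Called genes that fell by more than SMARCA4 thus lay on both sides of it. CARM1 and DNM2 stood at -0.39 and -0.30 after GC correction and were not called. Farther before SMARCA4, SLC44A2 (316 kb away) had a log2 fold change of -2.31 and ICAM5 (664 kb away) of -3.24, named after their values were seen. Both kept their calls after GC correction, at -1.99 and -2.70. The 5 neighbours called higher after GC correction also lay before SMARCA4.

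**Figure D5:**
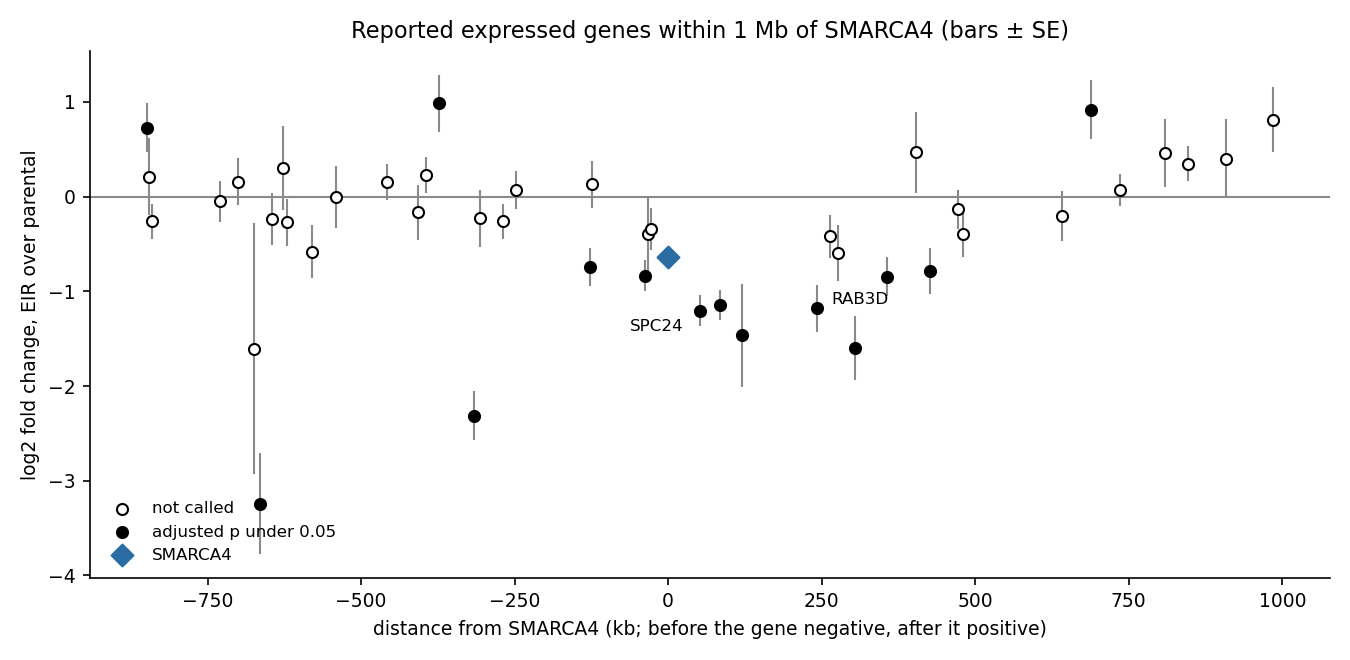
Log2 fold change of EIR over parental cells (y axis, ± SE bars) of 44 expressed genes within 1 Mb of SMARCA4 against their distance from it (x axis, kb); filled points had a DESeq2 adjusted p under 0.05 and the blue diamond is SMARCA4 at -0.64. The 4 genes from SPC24 at -1.20 to RAB3D at -1.18 all lie below SMARCA4.

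Around SMARCA2 only 2 genes were expressed within 1 Mb, both after it. VLDLR, a lipoprotein receptor 428 kb away, had 1998 normalised counts in parental cells, 2218 and 2214 in clone 3 and 3808 and 4144 in clone 4, with a log2 fold change of 0.63 (DESeq2 adjusted p = 0.296). PUM3, an RNA-binding protein of the nucleolus 527 kb away, had 2485 in parental cells, 5943 and 6576 in clone 3 and 7065 and 4796 in clone 4, with 1.29 (DESeq2 adjusted p = 2.26e-05). PUM3 was thus higher in both clones, as SMARCA2 was, and VLDLR exceeded the parental value mainly in clone 4. Gene copy number was not measured in these libraries, and its part in the levels was not tested.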

How the data were processed

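RNA from TOV21G cells was sequenced as stranded total RNA libraries with paired reads of 75 bases. The authors aligned reads to hg19 with bowtie2 and estimated counts with RSEM (version 1.2.3 per the submitters' processing notes) on an Ensembl annotation whose release is not stated. The deposited values were these RSEM expected counts, rounded to whole numbers, and were used as they stood. RSEM divides reads that fit several genes by estimation. Of 30476 identifiers 95.8% matched GENCODE release 44. Groups came from the labels, and the parental column was the only one without a clone tag.

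DESeq2 1.42.0 (two-sided Wald test, Benjamini-Hochberg adjusted p under 0.05), which the study names, was fitted to all genes. Alternatives were edgeR 4.0.16 (quasi-likelihood test), TMM and total count scaling, a filter of at least 10 counts in at least 2 libraries, GC correction (lowess, span 0.3), leaving out libraries, and the clone number as replicate block. Same-numbered libraries come from the same clone, and their deviations from the group means correlated (r = 0.862 across genes). Log2 levels used a pseudocount of 0.5. Poisson, Wilson and ratio counting intervals cover counting error only. They treat reads as independent molecules, which PCR reads without molecular identifiers are not, so they may be too narrow. Intervals of DESeq2 log2 fold changes were taken from the SE of the fit, which includes the spread between libraries. Scripts were tested on simulated data. The members and lists were chosen with earlier results of these data known. Named genes were the members, called Snf2 and SWI/SNF genes, expressed paralog pairs, the 5 nearest profiles per member and the nearest expressed neighbours. A few results for single genes are left out.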

Additional observations from a re-analysis of the deposited data

Results flagged for a closer look

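The response to GSK126 took opposite signs in the clones, without a test of the difference, since each clone had 1 treated and 1 untreated library. For SMARCA2 the log2 difference of treated from untreated cells was 0.31 in clone 3 and -0.0024 in clone 4, and the latter is within counting error of 0. For the log2 ratio of SMARCA2 to SMARCA4 it was 0.26 in clone 3 and -0.050 in clone 4. After GC correction the ratio differences were 0.27 and 0.02, so the opposite sign was not kept. Among the 4 EIR libraries, no value of SMARCA4, SMARCA2, their ratio or their sum stood apart by Dixon's criterion, the largest gap being 0.638 of the range against a critical value of 0.829.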

How the results depend on the processing

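In EIR against parental cells, SMARCA2 kept its direction and its call under all 13 alternatives (log2 fold change 1.21 to 1.50, highest adjusted p 0.0284). SMARCA4 kept its direction under all 13 and lost its call under 2, after GC correction (-0.22) and with the libraries of a clone summed (-0.63). In the contrasts of untreated or treated cells with the parental library, directions also held, but calls were often lost. With edgeR the untreated contrast gave 1.28 for SMARCA2 and -0.66 for SMARCA4 and the treated contrast 1.41 and -0.63, all uncalled, and with an edgeR filter of at least 10 counts in 2 libraries, added after the data were seen, 1.28, -0.66, 1.42 and -0.62. GC correction left SMARCA4 at -0.23 (untreated) and -0.21 (treated), and total count scaling at -0.51 (treated), all uncalled. Leaving out an untreated library gave -0.69 to -0.64 for SMARCA4 and 1.03 to 1.49 for SMARCA2, and leaving out a treated one -0.66 to -0.58 for SMARCA4; these lost the SMARCA4 calls and, without untreated clone 4, that of SMARCA2 (1.03, DESeq2 adjusted p = 0.180). Fewer libraries enter these fits, and otherwise the cause was not tested.

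The ratio changed by 1.98 on the log2 scale, and by 1.70 after GC correction; with exon union length the parental ratio per kb was 0.0750 in place of 0.0900, and the change was the same by construction. The summed level of both genes in EIR cells was 0.840 of the parental value per kb and 1.05 of it after GC correction, a comparison added after the data were seen.

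With the clone number as replicate block, paired treated and untreated cells differed by 0.03 for SMARCA4 and 0.14 for SMARCA2, and by 0.11 for their log2 ratio, and no member's call changed. With a library left out, SMARCA2 ranged from -0.078 (without untreated clone 3) to 0.36 and SMARCA4 from -0.0066 (without treated clone 3) to 0.072, with -0.0012 without untreated clone 4. Between clones SMARCA4 turned to 0.027 after GC correction. None of these was called.

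Numbers of genes called moved more. EIR against parental gave 4157 genes in DESeq2, 2024 in edgeR (1986 with the added filter) and 1914 with clones summed. The untreated and treated contrasts gave 1998 and 2017 in DESeq2, 3 each in edgeR (2 each with the added filter), and 526 to 736 and 881 to 928 with a library left out. Treatment within EIR gave 1 gene, 0 in edgeR, 4 with the replicate block (1 in edgeR), 7 with the block and GC correction, and 1 to 25 with a library left out, 25 without untreated clone 3. Clone 4 against clone 3 gave 1739, and 831 to 2800 with a library left out, 2800 without untreated clone 4.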
